A study of Mus musculus with 8 samples.

Results

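Nuclear genes of the respiratory complexes II to V were followed in the brains of mice with and without Cav1. The set held the rows of the count table whose gene names begin with Sdha, Sdhb, Sdhc, Sdhd, Sdhaf, Uqcr, Uqcc, Cox and a digit, or Atp5, leaving out names that end in -ps. These were 64 of 34299 genes. In the GENCODE M21 annotation 62 were protein-coding, and 2, Cox20b and Cox6c2, were processed pseudogenes. Complex II had 8 protein-coding members, complex III 11, complex IV 26 and complex V 17. Of these, 45 encode subunits and 17 assembly factors, with the supercomplex factor Cox7a2l counted among the latter.

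Polyadenylated RNA of whole brain was sequenced in 8 libraries, of which 6 were fetal, at gestation day 15, and 2 came from animals of 70 weeks. Of the fetal libraries 3 carried the intact gene (WT) and 3 lacked Cav1 (KO); both libraries of week 70 lacked it as well. Cav1 encodes caveolin 1, a coat protein of the membrane pits called caveolae. Both comparisons, KO against WT at day 15 and week 70 against day 15 within the KO, use the same 3 fetal KO libraries, and WT brain at week 70 was not analysed here. The labels name no strain, litter, sex, batch or tissue-specific driver of the deletion, so batch and group cannot be told apart. They call the fetal libraries biological replicates but say nothing of the 2 from week 70, whose p-values measure only the spread between libraries.

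Complex II (succinate dehydrogenase) oxidises succinate in the citric acid cycle and passes the electrons to ubiquinone. Complex III moves them to cytochrome c, complex IV (cytochrome c oxidase) moves them to oxygen, and complex V (ATP synthase) uses the resulting proton gradient to make ATP. Complexes III to V join nuclear subunits to a few made in the mitochondrion, several complex IV subunits exist as tissue-specific isoforms, and neurons depend on this pathway for most of their ATP.

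Libraries held 14110031 to 20833397 counts, and every fetal KO library was shallower than every WT library. Cav1 itself had 218 to 367 counts in the WT libraries and at most 5 in the KO libraries. The summed CPM (counts scaled to a common library total, normalised) of 10 erythroid genes was 1044 to 1324 in WT day 15, 3600 to 4425 in KO day 15 and 492 to 778 in KO week 70. Between the ages of the KO, 8 of 8 genes of mature neurons rose, their sum going from 617 to 647 CPM to 14229 to 15393, and so did 6 of 6 genes of oligodendrocytes, from 77.7 to 82.9 CPM to 13295 to 13415. Astrocyte genes (6 of 6 higher) went from 211 to 216 CPM to 6435 to 6846. Microglia genes (6 of 6 higher) went from 21.9 to 24.8 CPM to 339 to 419. Endothelial genes (8 of 8 higher) went from 61.8 to 79.3 CPM to 320 to 348. Progenitor genes (6 of 8 lower, 1 higher) went from 628 to 638 CPM to 226 to 227. All 9 erythroid genes tested were lower. Of all genes tested with age, 37.6% were higher and 44.4% lower. WT day 15 replicate 1 stood apart, with 4410 CPM of meningeal and fibroblast genes against 296 and 499 in the other WT libraries and 73.7 CPM of muscle genes against 11.2 and 11.96. The week 70 libraries differed in sex: replicate 1 had 7969 Xist counts and 0 from 4 Y-linked genes, replicate 2 had 4 and 2219, and every fetal library had at least 54531 Xist counts and at most 4 from the Y-linked genes. In such tissue RNA, fewer cells of a type and less RNA per cell cannot be told apart.

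The genes of complexes II to V took a larger share of the library in the fetal KO and a still larger share at week 70. They made up 0.390%, 0.400% and 0.413% of the counts in the WT libraries, 0.627%, 0.606% and 0.581% in the KO libraries at day 15, and 1.03% and 0.978% at week 70. No group overlapped with another. Per length, the subunit genes of complex IV summed to 1135 ± 73.6 CPM per kilobase in WT (SD, n = 3), 2109 ± 58.3 in the fetal KO (n = 3) and 5992 ± 545 at week 70 (n = 2). Those of complex V summed to 1577.5 ± 53.9, 2314 ± 166 and 5759 ± 181, those of complex III to 444 ± 18.7, 827 ± 22.2 and 1844 ± 200, and those of complex II to 184 ± 3.90, 212 ± 7.20 and 477 ± 8.37. In these CPM the share of each complex differed between the genotypes. The shares were not corrected for the trend of the fold changes with transcript length and GC content, described further on. On this per-length scale complex IV held 33.4% to 34.7% of the subunit total in WT, 38.1% to 39.6% in the fetal KO and 41.8% to 43.3% at week 70, whereas complex V held 46.6% to 47.6%, 40.8% to 43.2% and 39.96% to 42.0%, and complex II 5.29% to 5.62%, 3.79% to 4.003% and 3.28% to 3.51%. At day 15 the ranges of WT and KO did not overlap for any of the 4 complexes, complex III being at 13.2% to 13.4% in WT and 14.9% to 15.6% in the KO. At week 70 complex III was at 12.7% to 13.5%, which overlaps WT. With the counts of processed pseudogenes added, as described further on, complex V held 50.4% to 51.3%, 47.9% to 49.3% and 40.8% to 42.5%, and complex IV 32.0% to 33.2%, 35.2% to 35.9% and 41.4% to 42.6%.

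At day 15 most members were higher in the KO, whereas Sdha, Uqcrc1, Cox10, Cox15, Atp5a1 and Atp5b were lower. Of 61 members tested, 46 rose and 6 fell in the KO (edgeR's quasi-likelihood test, Benjamini-Hochberg adjusted p at most 0.05), while 9 were not called. Of all genes tested, 62.6% were called, 30.1% higher and 32.5% lower. The CPM of WT and KO did not overlap for 55 of the 61, against 68.4% of all genes tested. The median log2 fold change was 0.58 in complex II, 1.20 in complex III, 0.67 in complex IV and 0.72 in complex V, against 0.03 for all genes tested. Cox6a2, Cox7b2 and Cox8b had too few counts to be tested. Without WT replicate 1, 46 rose and 7 fell. In the fetal KO 8 of 8 progenitor genes were lower, summing to 628 to 638 CPM against 1354 to 1565 in WT, 7 of 8 endothelial genes were lower, at 61.8 to 79.3 CPM against 196 to 273, and of 9 erythroid genes tested 6 were higher and 2 lower. Astrocyte genes summed to 441 to 504 CPM in WT and 211 to 216 in the KO (4 of 6 lower, 1 higher), mature neuron genes to 765 to 903 and 617 to 647 (5 of 8 lower, 1 higher), and pericyte and smooth muscle genes to 233 to 296 and 161 to 169 (6 of 9 lower, 2 higher). Meningeal and fibroblast genes summed to 296 to 4410 CPM in WT and 63.8 to 133 in the KO (4 of 7 lower, 0 higher). Microglia genes summed to 36.4 to 64.1 CPM in WT and 21.9 to 24.8 in the KO (3 of 6 lower, 1 higher). The part of all these cells in the members' changes was not tested.

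**Figure D1:**
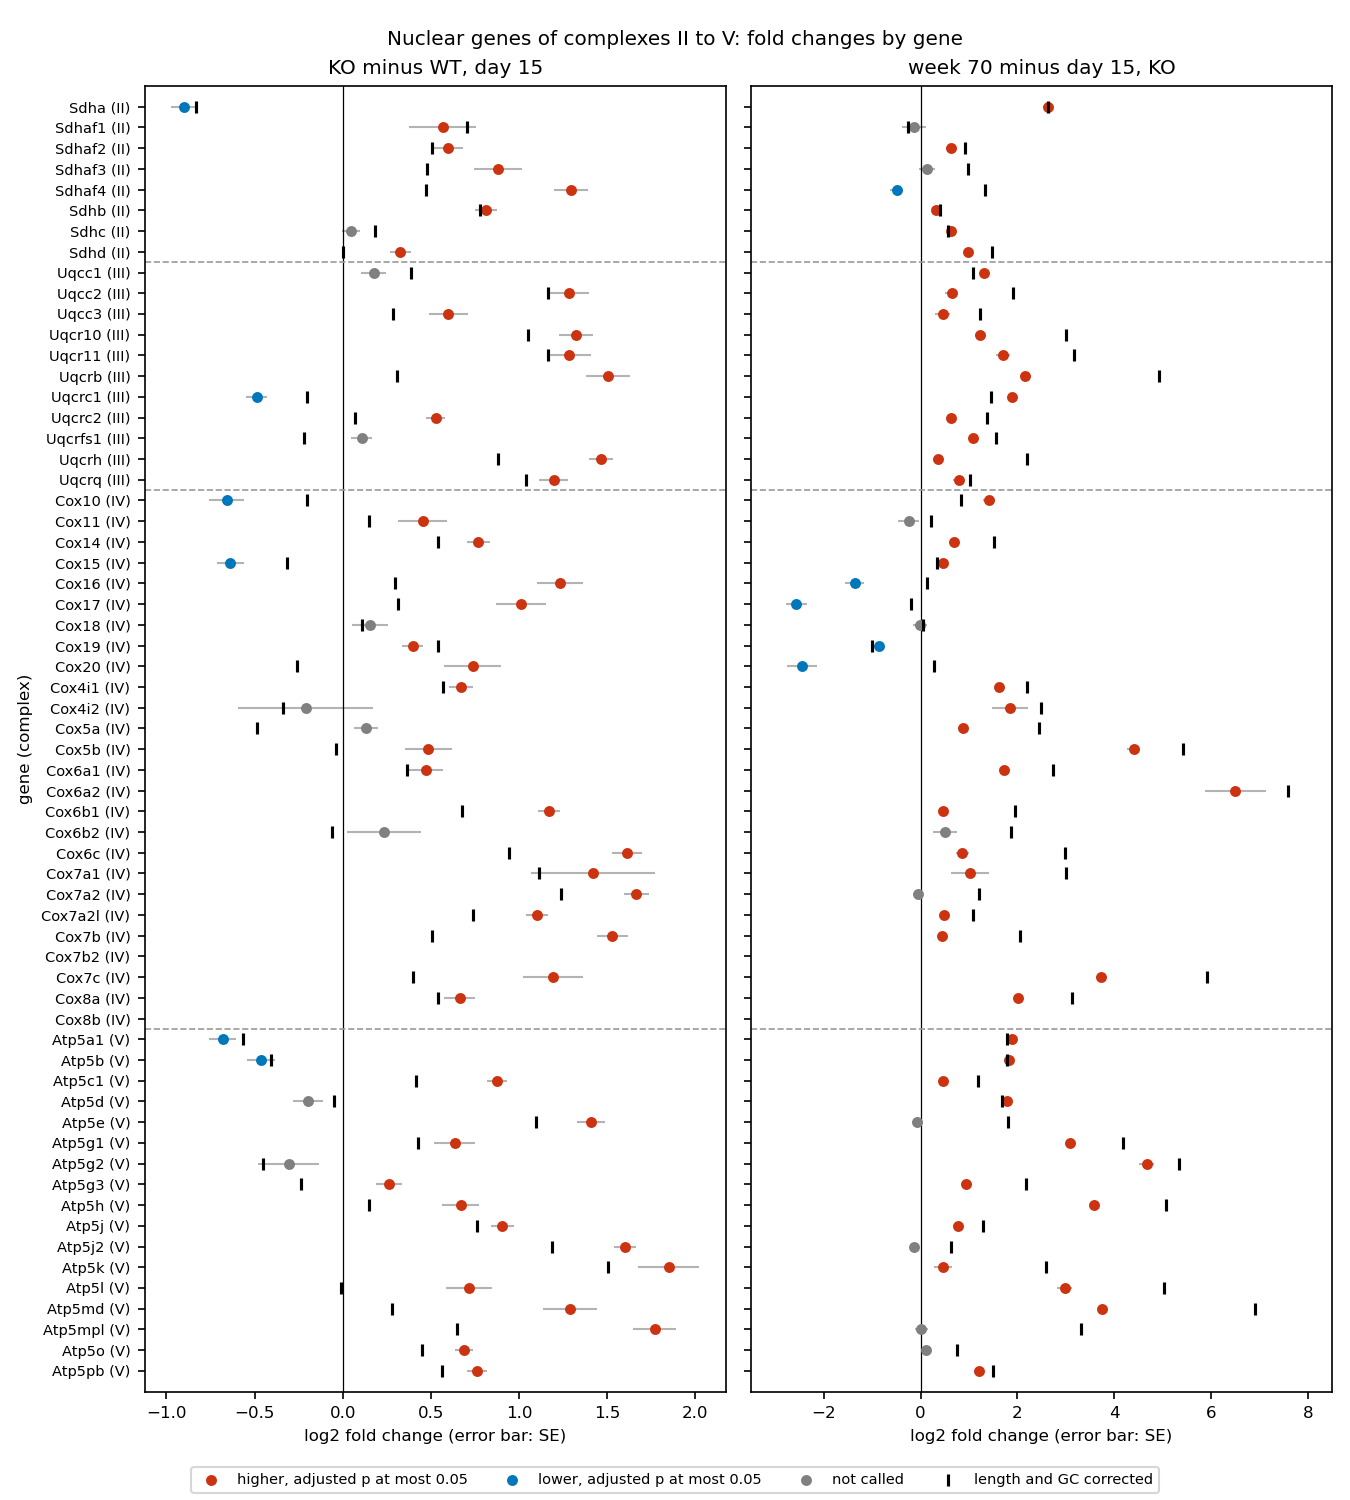
Log2 fold changes (x axes) of the 62 protein-coding members, by complex, for KO minus WT at day 15 (left) and for week 70 minus day 15 in the KO (right). Points are fitted values with their standard error, coloured by call, and black ticks give the fit corrected for transcript length and GC content; most points at day 15 lie right of 0, and the 6 called lower are Sdha, Uqcrc1, Cox10, Cox15, Atp5a1 and Atp5b.

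Within complex II the catalytic subunits moved in opposite directions at day 15. Sdha, the flavoprotein that oxidises succinate (GRCm38, chr13:74322254-74350280, minus strand), was at 150, 163 and 151 CPM in WT and at 82.0, 85.7 and 73.7 in the KO. Every KO library lay below every WT library, and Sdha fell by 0.90 ± 0.07 on the log2 scale (SE, adjusted p = 1.41e-06 by edgeR). Sdhb, the iron-sulfur partner of Sdha (chr4:140961203-140979193), went the other way, from 69.3, 73.0 and 75.6 CPM in WT to 131, 116 and 125 in the KO, a log2 fold change of 0.81 ± 0.06 (adjusted p = 1.67e-06 by edgeR). Of the membrane anchors, Sdhd rose by 0.33 and Sdhc had a fold change of 0.05 (adjusted p = 0.45 by edgeR). All 4 assembly factors rose. Sdhaf4, which helps Sdha join Sdhb, rose the most, from 9.58 to 10.3 CPM in WT to 22.7 to 25.6 in the KO, a log2 fold change of 1.30 ± 0.10 (adjusted p = 1.17e-06 by edgeR).

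In complex III, 8 of 11 members rose, and 1 fell. The small subunits Uqcrb, Uqcrh, Uqcr10, Uqcr11 and Uqcrq rose by 1.20 to 1.50 on the log2 scale. Uqcrb, which lies at the ubiquinone site, was at 6.31, 5.99 and 6.23 CPM in WT and at 16.1, 15.6 and 19.4 in the KO, a log2 fold change of 1.50 ± 0.13 (adjusted p = 2.35e-06 by edgeR). Core protein 1, Uqcrc1, fell from 132, 126 and 130 CPM to 95.9, 90.3 and 82.6, by 0.49 ± 0.06 on the log2 scale (adjusted p = 4.88e-05 by edgeR). Its partner in the core, Uqcrc2, rose by 0.53 ± 0.05 (adjusted p = 1.16e-05 by edgeR). The Rieske iron-sulfur protein Uqcrfs1 was at 83.5 to 88.9 CPM in WT and 86.6 to 94.4 in the KO and was not called (adjusted p = 0.127 by edgeR). Of the assembly factors, Uqcc2 rose by 1.28 and Uqcc3 by 0.60, whereas Uqcc1 was not called.

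In complex IV, 10 of the 13 subunits tested rose, and Cox4i2, Cox5a and Cox6b2 were not called. Cox7a2, the form of subunit 7a found in most tissues, rose the most, from 53.9, 52.1 and 57.2 CPM in WT to 168, 155 and 181 in the KO, a log2 fold change of 1.67 ± 0.07 (adjusted p = 3.26e-08 by edgeR). Its levels in the KO libraries were all above those in WT. Cox6c, Cox7b, Cox7c and Cox6b1 rose by 1.61, 1.53, 1.20 and 1.17 on the log2 scale, and Cox4i1, the common form of subunit 4, rose by 0.67 ± 0.07. Cox7b is X-linked, and all fetal libraries were of the XX type by the counts above. Among the 10 assembly factors 7 rose and 2 fell. Both that fell, Cox10 and Cox15, make haem A, the haem of complex IV. Cox10 was at 18.1, 20.2 and 17.8 CPM in WT and at 11.3, 11.3 and 11.9 in the KO, and fell by 0.66 ± 0.10 on the log2 scale (adjusted p = 0.000226 by edgeR). The copper factors Cox17 and Cox19 rose by 1.01 and 0.40, and Cox16, which serves the copper site of mt-Co2, by 1.23.

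Complex V is described by the parts of the enzyme, whose differences were not tested. In the catalytic F1 head 2 of 5 genes rose and 2 fell, with a median log2 fold change of -0.20. Atp5a1, subunit alpha, was at 538, 534 and 537 CPM in WT and at 355, 335 and 286 in the KO, and fell by 0.68 ± 0.08 (adjusted p = 1.99e-05 by edgeR). Atp5b, subunit beta, which carries the catalytic sites, fell from 672, 705 and 709 CPM to 541, 497 and 433, by 0.46 ± 0.08 on the log2 scale (adjusted p = 0.000435 by edgeR). The KO libraries lay below the WT libraries for both, while gamma (Atp5c1) and epsilon (Atp5e) rose by 0.87 and 1.41. All 4 genes of the peripheral stalk rose, with a median of 0.73, and so did all 5 small subunits of the membrane part, with a median of 1.60. In the fit corrected for transcript length and GC content, described further on, 3 of 4 stalk genes and 3 of 5 small membrane subunits were called higher, with medians of 0.51 and 0.65. Atp5k, membrane subunit e, rose the most of all members, from 10.3, 15.7 and 14.6 CPM to 50.3, 55.0 and 36.9, a log2 fold change of 1.85 ± 0.17 (adjusted p = 5.8e-06 by edgeR).

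**Figure D2:**
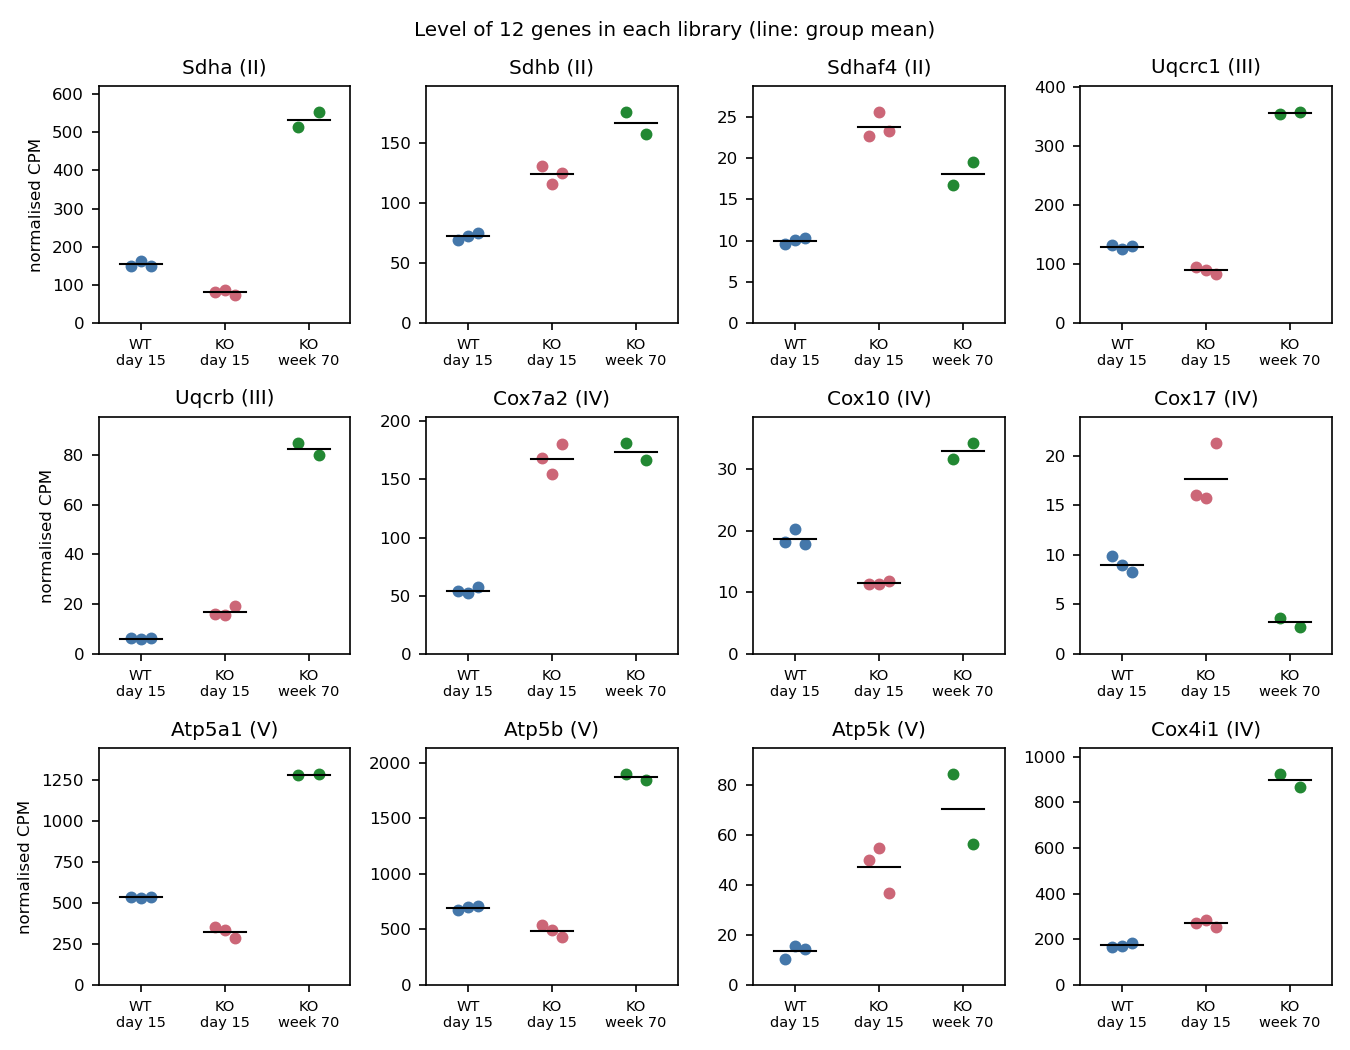
Normalised CPM (y axes, from 0) of 12 members in each of the 8 libraries, with lines at the group means. Sdha, Uqcrc1, Cox10, Atp5a1 and Atp5b are lowest in the fetal KO and highest at week 70, whereas Sdhaf4 and Cox17 are highest in the fetal KO.

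The fold changes at day 15 varied with transcript length and GC content, among the members and over all genes. Across the 59 protein-coding members tested, Spearman's rho between the log2 fold change and transcript length was -0.61, and over the 19050 tested genes with a known length it was -0.40. With GC content rho was -0.20 across the members and -0.47 over all genes. Genes are not independent replicates, and this rho describes these libraries. The members are short, with a median transcript of 738 bases against 2571 for all genes tested, and all 6 that fell are longer than that median, Sdha with 2900 bases, Uqcrc1 with 1653, Cox15 with 4798, Cox10 with 2915, Atp5a1 with 2471 and Atp5b with 1916. A long transcript did not always go with a fall: Sdhaf3, with 4323 bases, rose by 0.88. After each library was corrected for transcript length and GC content over all genes, 34 members were higher and 8 lower, against 25.6% higher and 24.4% lower among all genes. The medians were then 0.48 in complex II, 0.39 in complex III, 0.36 in complex IV and 0.42 in complex V. Of the 46 rises 32 were kept and of the 6 falls 5, Cox10 being lost (adjusted p = 0.153 by edgeR). Sdha kept a log2 fold change of -0.83, Atp5a1 of -0.56 and Atp5b of -0.41, and Cox7a2 and Atp5k of 1.24 and 1.51. Other rises were called but much smaller: Uqcrb went from 1.50 to 0.31, Sdhaf4 from 1.30 to 0.47, Cox7b from 1.53 to 0.50 and Atp5mpl from 1.77 to 0.65. The 11 protein-coding members whose rise lost its call were Sdhd, Uqcrc2, Cox5b, Cox7c, Cox11, Cox16, Cox17, Cox20, Atp5h, Atp5l and Atp5md, with adjusted p from 0.0529 for Cox16 to 0.999 for Sdhd by edgeR. The rises of the pseudogenes Cox20b and Cox6c2 lost their calls too (adjusted p = 0.302 and 0.118 by edgeR). The c-ring gene Atp5g3, higher by 0.26 before, was lower by 0.24. Its rise was also lost without KO replicate 1 or 2 (adjusted p = 0.0584 and 0.062 by edgeR). Cox5a, not called before, was lower by 0.48 (adjusted p = 0.000136 by edgeR). Across the members rho was still -0.36 in the corrected fit, against -0.02 over all genes.

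**Figure D3:**
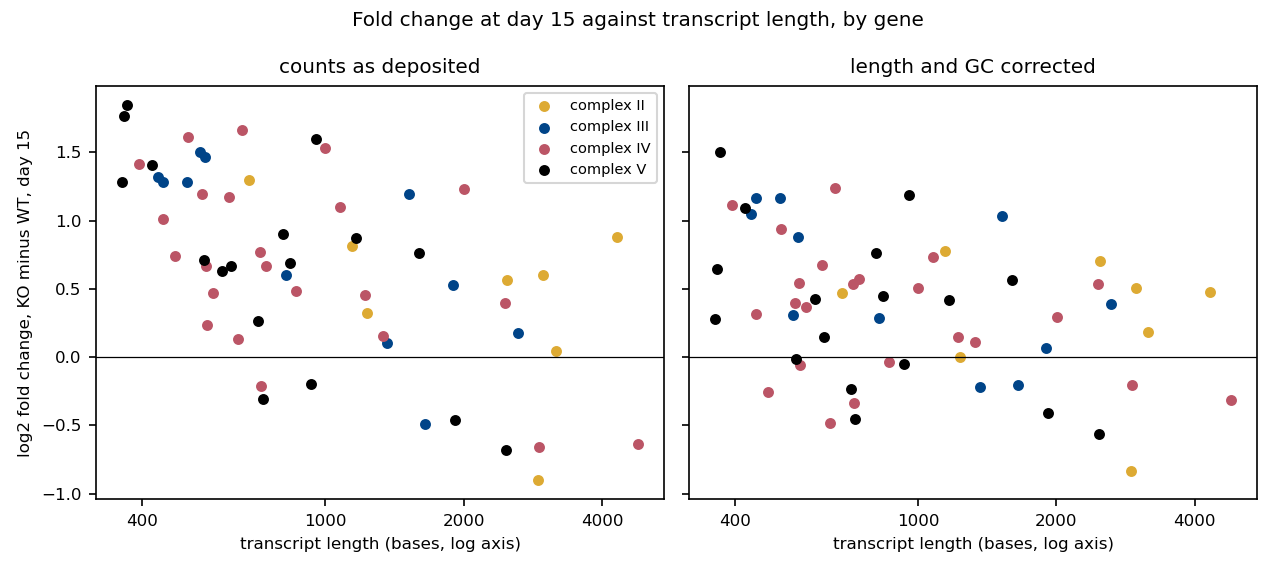
Log2 fold change between KO and WT at day 15 (y axis) against transcript length in bases (x axis, log scale) for 59 members, coloured by complex, from the counts as deposited (left) and after correction for length and GC content (right). Short genes lie high on the left, and the slope is smaller on the right, where rho is -0.36 instead of -0.61.

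In the KO brain at week 70 most subunits were higher than in the fetal KO. Of 62 members tested, 45 rose, 6 fell and 11 were not called. Of all genes tested, 82% were called, 37.6% higher and 44.4% lower. Groups did not overlap for 53 of the 62 members, against 87.9% of all genes. Among the subunits 37 of 43 rose and the other 6 were not called, and 43 of 43 were higher in the corrected fit. Among the 17 assembly factors 8 rose and 5 fell. The median log2 fold change was 0.48 in complex II, 1.08 in complex III, 0.59 in complex IV and 1.20 in complex V, against -0.19 for all genes. In the corrected fit 54 members were higher and 2 lower, against 39.9% and 39% of all genes tested. The marker sums given above differed between the ages, and the part of cell types in the changes was not tested. Correction turned the median log2 fold change of the members from 0.73 to 1.73. It also turned Spearman's rho with transcript length from -0.11 to -0.61 across the 60 protein-coding members tested. Over all genes that rho went from 0.20 to 0.05, so the corrected values of the members with age follow length more than the uncorrected ones.

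The 4 large subunits that were lower in the fetal KO than in WT were higher at week 70 than in any fetal library. Sdha was at 513 and 552 CPM at week 70, a log2 fold change of 2.63 ± 0.09 over the fetal KO (adjusted p = 1.7e-09 by edgeR), the largest called rise in complex II. Uqcrc1 was at 354 and 357 CPM, a fold change of 1.89 ± 0.09 on the log2 scale. Atp5a1 was at 1282 and 1285 CPM and Atp5b at 1897 and 1850, with log2 fold changes of 1.88 ± 0.10 and 1.83 ± 0.11. Correction for length and GC content left all 4 higher, at 2.63, 1.45, 1.78 and 1.78. Because the fetal KO libraries enter both comparisons, a low value in them adds to the fall at day 15 and to the rise with age. In complex V the F1 head rose as a group except Atp5e (4 of 5 genes, median 1.78), whereas Atp5e, Atp5j2, Atp5mpl and Atp5o, all but the last of them among the steepest rises at day 15, were not called. This contrast was not seen in the corrected fit. There all 5 genes of the F1 head were higher, with a median of 1.78 and Atp5e at 1.80. The 5 small membrane subunits were all higher as well, with a median of 3.31, or 2.65 with pseudogene rows added. Cox7a2 was at 181 and 166 CPM at week 70, overlapping the fetal KO (log2 fold change -0.05, adjusted p = 0.624 by edgeR), but at 1.21 in the corrected fit. Sdhb at 176 and 157 CPM was higher by 0.32 ± 0.09 (adjusted p = 0.00721 by edgeR), and without KO day 15 replicate 2 it lost the call (adjusted p = 0.0506 by edgeR). Atp5k, at 84.4 and 56.4 CPM, was higher by 0.47 (adjusted p = 0.0349 by edgeR), and lost its call without week 70 replicate 1 (0.16, adjusted p = 0.395 by edgeR) or without KO day 15 replicate 1 or 3 (0.52 and 0.32, adjusted p = 0.0527 and 0.147 by edgeR).

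Of the 6 members that fell with age, 4 are assembly factors of complex IV. Cox17, the copper chaperone, was at 16.1, 15.7 and 21.3 CPM in the fetal KO and at 3.63 and 2.76 at week 70, and fell by 2.57 ± 0.22 on the log2 scale (adjusted p = 1.54e-06 by edgeR). Cox20, a chaperone of mt-Co2, fell by 2.44, Cox16 by 1.36 and Cox19 by 0.87, and in complex II Sdhaf4 fell from 22.7 to 25.6 CPM to 16.7 and 19.5. At week 70 Cox17 and Cox20 lay below the WT fetal libraries as well, which held 8.24 to 9.86 and 3.12 to 3.27 CPM. In the fit corrected for length and GC content together, Cox19 remained lower by 1.01, Cox17 was at -0.20 (adjusted p = 0.391 by edgeR), Cox16 and Cox20 were at 0.14 and 0.27, and Sdhaf4 was higher by 1.32. The other gene that fell was the processed pseudogene Cox20b, a copy of Cox20, with 45, 118 and 35 counts in the fetal KO and 0 in both week 70 libraries. Taking 3 counts per library as the limit that a count of 0 allows, Cox20b was at least 18.2-fold lower at week 70, and at least 11.5-fold lower without KO day 15 replicate 2. At day 15 Cox20b rose by 1.72 on the log2 scale, and by 1.04 without KO replicate 2. In the corrected fit it was at 0.55 and was not called (adjusted p = 0.302 by edgeR).

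Counts on processed pseudogenes, which are reverse-transcribed copies of an mRNA in the genome, separated the ages and changed several members. Rows of 70 processed pseudogenes were assigned to 28 members, by alignment or by name. Of these rows 2, Cox20b and Cox6c2, are members and were counted as such in the following shares. The other rows held 10.5 to 10.8 of every 100 counts of members and pseudogenes together in WT, 16.5 to 16.8 in the fetal KO and 1.29 to 1.55 at week 70. For 13 members the counts on all their assigned rows came to more than 2% of the gene's own counts, pooled over the 8 libraries, a limit chosen after the values were seen. Cox7c, complex IV subunit 7c, had 275, 314 and 253 counts in the fetal KO and 3773 and 3099 at week 70, while its pseudogene rows had 3114, 3305 and 2828 against 175 and 171. With these added, the log2 fold change of Cox7c with age went from 3.73 to 0.22 and lost its call (adjusted p = 0.0637 by edgeR). Likewise Cox5b went from 4.40 to 1.48, Atp5md from 3.75 to 0.32, Atp5h from 3.59 to 0.62, Uqcrb from 2.17 to 1.17, and Cox7a2l from 0.48 to 0.05, which lost its call too. Atp5l changed direction, from 2.98 to -0.49. How the authors counted reads that match several places is not given in the sources used here, so gene and copy cannot be told apart for these members. Cox5b-ps, the row added to Cox5b, was assigned by name and not by alignment. Other copies are close: Gm12338 aligned over its whole length to Cox7c with 100% identity, and so did Gm10221 to Atp5l and Gm14539 to Atp5md. In the other 49 protein-coding members they came to at most 2% in this pool, although they made up 3.12% of gene plus pseudogene counts for Atp5j and 3.20% for Atp5k in single libraries. Of 47 tested with age 34 rose and 4 fell, with a median log2 fold change of 0.64, and of 46 tested at day 15, 32 rose and 6 fell, with a median of 0.63. With the rows added, 44 of 59 were higher and 6 lower at day 15, and 42 of 60 higher and 6 lower with age. With the rows added and length and GC content corrected together, 17 of 17 complex V subunits were higher with age, Atp5l included. So were 14 of the 14 complex IV subunits tested, Cox7c included, against 7925 of all 19875 genes tested in that fit.

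**Figure D4:**
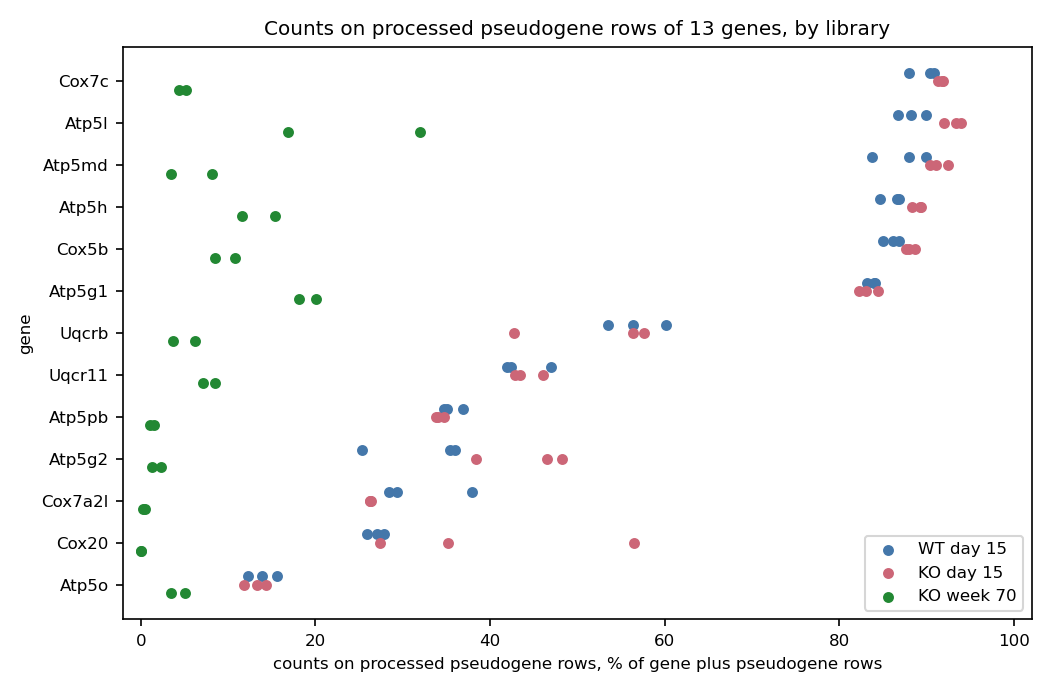
Counts on processed pseudogene rows as a percentage of gene plus pseudogene counts (x axis) for 13 members (y axis), 1 point per library. The 6 fetal libraries lie far to the right of the 2 week 70 libraries for Cox7c, Atp5l, Atp5md, Atp5h, Cox5b and Atp5g1, and for these genes the WT and KO fetal libraries lie close together.

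The complex IV isoforms known from muscle were scarce in the fetal brain and some appeared at week 70. Cox6a2, the heart and muscle form of subunit 6a (chr7:128205435-128206387), had 4, 2 and 1 counts in WT, 0, 6 and 0 in the fetal KO, and 231 and 125 at week 70. Its share of the subunit 6a genes, per length, was at most 0.165% in the fetal libraries and 1.95% and 1.22% at week 70, so that Cox6a1 stayed the main form. Cox6a2 was higher at week 70 by 6.50 ± 0.63 on the log2 scale (adjusted p = 3.76e-06 by edgeR), a value that depends on the 6 counts of KO replicate 2 and is 10.5 without it. Cox8b, the muscle form of subunit 8, had at most 3 counts in each fetal KO library and 11 and 52 at week 70, most of them in replicate 2. Cox7a1, the muscle form of subunit 7a, held 0.876% to 1.43% of Cox7a1 plus Cox7a2 in WT, 0.747% to 1.13% in the fetal KO and 1.50% and 2.64% at week 70. It rose by 1.42 at day 15, from 6 to 9 counts in WT to 14 to 19 in the KO (adjusted p = 0.005 by edgeR). Its rise with age (log2 fold change 1.03, adjusted p = 0.0316 by edgeR) was 0.64 without week 70 replicate 2 (adjusted p = 0.222 by edgeR), and its call was also lost without any 1 of the fetal KO libraries (adjusted p = 0.0569 to 0.0858 by edgeR). The 10 muscle genes used as markers summed to 10.3 to 25.8 CPM in the fetal KO and 27.2 and 37.2 at week 70, 3 of them at 3 counts or fewer in both old libraries. Genes of parvalbumin interneurons went from 238 to 256 CPM to 2163 to 2358 over the same ages, and the part of either cell type in these isoforms was not tested.

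Cox4i2, the form of subunit 4 that responds to low oxygen (chr2:152754173-152765037), was scarce in all libraries. It had 27, 11 and 20 counts in WT, 9, 18 and 14 in the fetal KO and 46 and 45 at week 70. That was 0.327% to 0.771%, 0.204% to 0.361% and 0.336% to 0.364% of Cox4i2 plus Cox4i1 per length, and the groups overlapped. Cox4i2 itself rose with age by 1.85 on the log2 scale (adjusted p = 0.000895 by edgeR), beside a rise of 1.63 in Cox4i1. The testis form Cox6b2 held 3.17% to 4.52% of Cox6b2 plus Cox6b1 in WT, 1.86% to 2.40% in the fetal KO and 2.04% and 2.38% at week 70. The WT libraries lay above all others, as Cox6b1 rose at day 15 and Cox6b2 was not called (log2 fold change 0.23, adjusted p = 0.357 by edgeR). Cox7b2 had 0 counts in 6 of 8 libraries and never more than 6. Ratios of 8 isoform pairs were compared in both comparisons, 16 relations in all. An exact two-sided permutation test cannot go below p = 0.1 with 3 against 3 libraries or 0.2 with 3 against 2, and the adjusted p was 0.32 or more throughout. At day 15 the log2 ratio of Cox6b2 to Cox6b1 differed by -0.93 and that of Cox7a2l to Cox7a2 by -0.56, both without overlap (exact p = 0.1). The ratios of the c-ring genes Atp5g2 and Atp5g1 to Atp5g3 differed by -0.57 and 0.37, also without overlap (exact p = 0.1). With pseudogene rows added these 2 differences were -0.29 and 0.33.

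The c-ring of ATP synthase is built from 1 protein that 3 genes encode with different targeting sequences. Per length, Atp5g3 held 87.4% to 88.3% of the 3 genes in WT, 86.0% to 86.8% in the fetal KO, and 51.0% and 52.9% at week 70. Atp5g2 (chr15:102662864-102672352, minus strand) went from 1.86% to 2.89% in the fetal KO to 19.9% and 16.0% at week 70, and Atp5g1 from 11.2% to 11.4% to 29.1% and 31.1%. Pseudogene rows held 82.2% to 84.4% of the counts of Atp5g1 and its copies in the fetal libraries, and 18.2% to 20.02% at week 70. With these rows added Atp5g3 held 58.9% to 60.5% in WT, 53.0% to 56.2% in the fetal KO and 47.4% and 49.3% at week 70. The share of Atp5g1 was then 41.4% to 44.1% in the fetal KO and 33.8% and 35.4% at week 70, and its log2 fold change went from 3.08 to 0.82. Atp5g2 was higher in both settings. Its log2 fold change was 4.67 ± 0.15 (adjusted p = 9.3e-10 by edgeR) and 3.85 with pseudogene counts added, from 3.75, 3.22 and 4.29 CPM in the fetal KO to 116 and 88.9 at week 70. At day 15 Atp5g2 was at 4.64 to 4.87 CPM in WT and was not called (log2 fold change -0.31, adjusted p = 0.148 by edgeR).

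**Figure D5:**
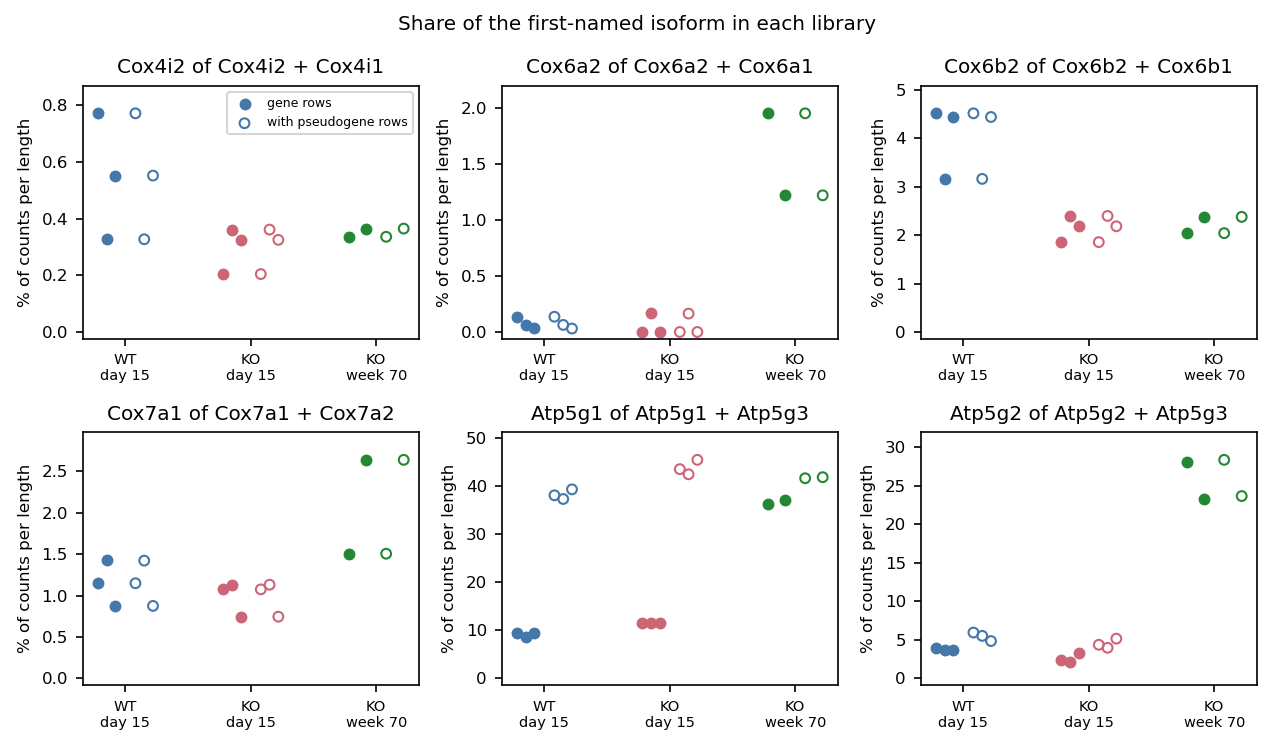
Share of the first-named gene in 6 isoform pairs, as a percentage of the counts per length of both genes (y axes), in each library; filled points use gene rows and open points add pseudogene rows. Cox6a2 and Atp5g2 are higher at week 70 on both scales, whereas the share of Atp5g1 at week 70 lies above the fetal KO by gene rows and below it with pseudogene rows added.

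Because most members moved together, their promoters were searched for sites of 3 factors known to drive respiratory genes. RefSeq (GRCm38.p6) gave a promoter for 50 members, 250 bases before to 50 after the start. On both strands, the NRF1 core GCATGCGC was in 14% of these against 2.8% of 27025 promoters of all genes, the ETS site CCGGAAGT (bound by the GABP factor) in 14% against 4%, and the YY1 site AAGATGGC in 10% against 2.88%. At least 1 of the 3 was in 34% of the members and 9.15% of all promoters. A match describes letters only, and nothing here shows binding. Stretches before the start that lie in no annotated exon of a protein-coding transcript are shown for 3 members that rose in both comparisons. Cox6a1 holds 2 overlapping matches to the NRF1 core on opposite strands, and the small complex III subunits Uqcr11 and Uqcrh hold an ETS match each, on opposite strands; the matches are in capitals.
Cox6a1 (chr5:115348982-115349208, minus strand): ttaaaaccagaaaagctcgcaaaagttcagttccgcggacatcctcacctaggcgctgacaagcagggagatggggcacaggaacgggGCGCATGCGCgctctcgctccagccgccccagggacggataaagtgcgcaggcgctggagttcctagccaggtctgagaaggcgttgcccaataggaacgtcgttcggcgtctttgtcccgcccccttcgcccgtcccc
Uqcr11 (chr10:80406831-80407071, minus strand): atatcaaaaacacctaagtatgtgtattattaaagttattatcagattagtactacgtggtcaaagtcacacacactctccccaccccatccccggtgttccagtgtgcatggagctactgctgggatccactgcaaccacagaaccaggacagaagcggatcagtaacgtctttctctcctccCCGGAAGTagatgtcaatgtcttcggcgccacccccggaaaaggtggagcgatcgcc
Uqcrh (chr4:116075072-116075268, minus strand): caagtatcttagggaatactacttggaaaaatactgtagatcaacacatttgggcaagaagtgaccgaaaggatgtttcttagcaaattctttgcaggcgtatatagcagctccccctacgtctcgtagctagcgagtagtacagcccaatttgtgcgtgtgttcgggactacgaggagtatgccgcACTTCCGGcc
In this order the log2 fold changes were 0.47, 1.28 and 1.46 at day 15 and 1.73, 1.71 and 0.37 with age. The NRF1 core was also found at Sdhb and Uqcrc1, which moved in opposite directions at day 15, and at Uqcr11, Atp5g2, Atp5k and Atp5l. Besides Uqcr11 and Uqcrh, the ETS site was at Cox8a, Cox14 and Atp5h, which rose at day 15, and at Cox10 and Cox15, which fell. Cox10 held the YY1 site too, as did Uqcc2, Cox20, Atp5j2 and Atp5pb, which rose. Among 8 regulators listed, Nrf1 fell by 0.30 (adjusted p = 0.00203 by edgeR) and Yy1 by 0.92 (adjusted p = 3.22e-07 by edgeR) at day 15, Tfam rose by 0.54 (adjusted p = 2.57e-05 by edgeR), and the other 5 were not called. In the corrected fit 3 of the 8 were higher and 4 lower: Nrf1 was at -0.20, Yy1 at -0.27 and Tfam at 0.56, while the receptor gene Esrra and the coactivator gene Ppargc1b were higher by 0.43 and 0.90. With age 4 rose and 4 fell: Ppargc1a, Ppargc1b, Esrra and Yy1 rose by 1.55, 1.85, 1.44 and 0.56, and Gabpa, Gabpb1, Nrf1 and Tfam fell by 1.28, 1.28, 1.06 and 0.33. Yy1 and Tfam lost these calls in the corrected fit.

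Genes of the pathway outside the name rule also moved mostly upward at day 15. Nuclear genes of complex I were taken by names that begin with Nduf, so assembly factors and Ndufa4 are among them. Of 48 such genes tested, 40 rose and 1 fell at day 15, with a median log2 fold change of 0.89. Among all genes tested 30.1% rose and 32.5% fell. Of 49 complex I genes tested with age 37 rose and 5 fell, against 37.6% and 44.4% of all genes. Of 15 further complex IV subunits and factors, 11 rose and 2 fell at day 15. Ndufa4, a complex IV subunit named for complex I and counted in both lists, rose by 1.50. In the corrected fit 33 complex I genes were higher and 4 lower at day 15, against 25.6% and 24.4% of all genes. With age 45 were higher and 0 lower in that fit, against 39.9% and 39%. At day 15 in the corrected fit 7 of the 15 complex IV genes were higher and 2 lower, and Ndufa4 was at 0.51. The 2 that fell were Lrpprc and Taco1, which serve the mRNA of mitochondrially encoded subunits. Of the complex V factors Atpif1, the inhibitor of the reverse reaction, went from 81.5 ± 4.61 CPM in WT to 211 ± 9.13 in the fetal KO (SD, n = 3 each) and 110 ± 22.6 at week 70 (n = 2). Its rise at day 15 was 1.42, or 1.02 in the corrected fit, and its change with age went from -1.04 to 0.54 in that fit. Of the electron carriers, cytochrome c (Cycs) rose by 1.12 at day 15 and by 3.37 with age, and the haem-bearing subunit Cyc1 fell by 0.27 and then rose by 1.54. Pseudogene rows were assigned to members only. For Cycs, the complex I genes and the others outside the name rule, counts on copies were therefore not examined. Corrected, Cycs was at 0.58 and 4.26, and Cyc1 at -0.11, where it lost its day 15 call (adjusted p = 0.122 by edgeR), and 1.29. The 6 mitochondrially encoded partner subunits all rose at day 15, by 0.79 to 1.64, but in the corrected fit 2 were higher and 3 lower. With age mt-Co1 and mt-Cytb rose, by 0.67 and 0.62, and mt-Atp6, mt-Atp8 and mt-Co3 fell, while all 6 had values above 0 in the corrected fit, 0.86 to 2.61.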

How the data were processed

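Whole-brain libraries were made from polyadenylated RNA with random-primed cDNA, per the labels. The values the authors deposited are unnormalised counts of reads for each gene identifier, in 1 table covering 8 libraries. The submitters' processing notes name FastQC, cutadapt, Trimmomatic, HISAT2, featureCounts and edgeR without versions, and both GRCm38 and GRCm39. Whether strand was used, which annotation served for counting and what was done with reads of several matches is not given in the sources used here. Totals ranged from 14110031 to 20833397 counts; 3 counts is the limit a count of 0 allows, 0.14 to 0.207 CPM, and it covers counting error only.

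The test over all genes was run in R 4.3.3 with edgeR 4.0.16: filterByExpr, TMM scaling, a two-sided quasi-likelihood test and a Benjamini-Hochberg threshold 0.05. The 6 fetal libraries (19147 genes) and the 5 KO libraries (20000 genes) were fitted separately. CPM are normalised by TMM. Transcript length, GC content, gene type and coordinates came from GENCODE M21 (GRCm38), which matched 97.3% of the identifiers, with 1 principal transcript per gene. In the corrected fit a smooth of length and GC content, fitted per library with mgcv 1.9.3 to its log deviations from the mean of each gene, entered as an offset. Processed pseudogenes were assigned to members with minimap2 2.31 (at least 50% of the pseudogene aligned at 85% identity) or by a -ps name. Isoform ratios used counts plus 0.5. Scripts were tested on simulated data.

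Members and lists were chosen with earlier results of these data known. Named genes are the isoform sets, the catalytic or core subunits (Sdha, Sdhb, Uqcrc1, Uqcrc2, Uqcrfs1, Atp5a1, Atp5b), the largest rise and fall of each complex in each comparison (past the threshold, with 50 counts or more on average and CPM ranges that do not overlap) and the 3 with the largest changes among those called in opposite directions; other members are named to describe a group, after their values were seen. Alternatives were RLE and upper-quartile scaling, other filters, DESeq2, all libraries in 1 fit, the replicate block, leaving out each library, a minimum log2 fold change of 0.5, the corrected fit and adding -ps rows; adding all aligned pseudogene rows was chosen after seeing the data. Replicate numbers did not pair the libraries. A list of markers that define brain tissue is not reported here.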

Additional observations from a re-analysis of the deposited data

How the results depend on the processing

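With each library left out in turn, 43 to 46 members rose and 6 or 7 fell at day 15, and 42 to 45 rose and 6 or 7 fell with age. The medians at day 15 ranged from 0.53 to 0.65 in complex II, 1.10 to 1.25 in complex III, 0.62 to 0.71 in complex IV and 0.71 to 0.77 in complex V, and with age from 0.36 to 0.56, 1.04 to 1.14, 0.55 to 0.63 and 1.15 to 1.26. DESeq2 1.42.0 gave 46 and 7 calls at day 15 and 43 and 6 with age, and RLE scaling 46 and 6, and 44 and 6. Upper-quartile scaling moved the median of all genes from 0.03 to 0.20 at day 15 and from -0.19 to -0.44 with age. It moved the complex medians to 0.76, 1.37, 0.84 and 0.89 at day 15 and to 0.23, 0.83, 0.35 and 0.95 with age. With no filter on low counts the medians were 0.49 in complex II and 0.62 in complex V at day 15 and 0.76 in complex IV with age. With all 8 libraries in one fit they were 0.79 in complex IV and 1.30 in complex V with age. Subunits only gave 0.19 in complex II at day 15, and 0.81 in complex II and 1.33 in complex IV with age. Adding pseudogene rows gave 0.88 in complex V at day 15, and 0.48 in complex IV and 0.61 in complex V with age (0.94 in complex V with -ps names only). The log2 ratio of Atp5g1 to Atp5g3 with age went from 2.15 to -0.12 with these rows.

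Correction for length and GC content gave medians of 0.48, 0.39, 0.36 and 0.42 at day 15 and of 0.95, 1.56, 1.91 and 1.80 with age, where 2 members were lower instead of 6. With pseudogene rows added as well the medians were 0.48, 0.39, 0.37 and 0.49 at day 15 and 0.95, 1.56, 1.92 and 1.78 with age, where 1 was lower. Atp5g3 was then at -0.24 and Uqcrfs1 at -0.22 at day 15. With age Cox7a2 was at 1.22 (1.21 in the corrected fit alone) and Sdhaf4 at 1.33 (1.32). Each had the opposite sign in the uncorrected fit, where Uqcrfs1 and Cox7a2 were not called. The cause was not tested.

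Same-numbered fetal libraries did not deviate together (correlations -0.16, -0.19 and -0.17), so the numbers are not taken to pair them. With the replicate number as a block 46 rose and 6 fell at day 15, and 42 rose and 6 fell with age; Atp5k (0.30, adjusted p = 0.108 by edgeR) and Cox7a1 (0.88, adjusted p = 0.223 by edgeR) lost their calls with age, and no other named gene did. Block and correction together gave medians of 0.47, 0.39, 0.36 and 0.42 at day 15 and of 0.98, 1.53, 1.92 and 1.74 with age, with 2 lower members; Atp5g3 was at -0.24, Uqcrfs1 at -0.22, Cox7a2 at 1.27 and Sdhaf4 at 1.27.

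Depth limits Cox6a2, Cox7b2 and Cox8b at day 15 and Cox7b2 and Cox8b with age, which were not tested.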
